A study of Mus musculus with 12 samples.

Results

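The small proline-rich protein (Sprr) genes were followed through the ears of mice injected with IL-17A, IL-36γ, both cytokines or the PBS vehicle. The 10 genes of the list, Sprr1a, Sprr1b, Sprr2b, Sprr2d, Sprr2e, Sprr2f, Sprr2g, Sprr2h, Sprr2i and Sprr3, were matched by their mouse symbols to the Ensembl rows of the deposited count table, which holds 50684 genes. Of these 10 genes, 9 passed the filter on low counts and were among the 19408 genes tested, and Sprr3 did not pass. A further 7 genes carry an Sprr symbol and are not on the list.

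The study asked how IL-17A and IL-36γ, cytokines of the psoriatic network, act in skin when given alone or together. Female C57BL/6 mice, 8 weeks old, received intradermal injections into the ear pinnae: the PBS group received vehicle, the IL-17A group 1 µg of IL-17A, the IL-36γ group 1 µg of IL-36γ, and the IL-17A + IL-36γ group 1 µg of each, in 5 µL. Total RNA of ear tissue was sequenced on day 4 from 3 of the 5 mice of each group, which gave 12 libraries. All groups were of this strain and shared the injection itself, treatment ran over consecutive days up to collection, and 1 dose level and 1 time point were measured.

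SPRR proteins are built of proline-rich repeats and are cross-linked by transglutaminases into the cornified envelope, the protein shell under the membrane of the outermost keratinocytes. Their genes lie side by side in the epidermal differentiation complex, a gene cluster that also holds loricrin, involucrin, filaggrin, late cornified envelope and S100 genes. In healthy skin most Sprr genes are expressed at low levels, and several are known to rise in wounded, inflamed or psoriatic epidermis.

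Because the members lie within 1 cluster, their promoters are shown before their values. The 17 annotated Sprr genes span 284.7 kb of chromosome 3 (GRCm38, 92215799 to 92500493), with Sprr2b to Sprr2i on the plus strand and Sprr1b, Sprr3 and Sprr1a on the minus strand. No list member overlapped another annotated gene. RefSeq promoter windows (GRCm38.p6, from 250 bases before to 50 bases after the transcript start) were found for 9 of the 10 members, all except Sprr2g. The bases from −250 to −1 are given for the pair with the highest fold changes under IL-36γ and under both cytokines (Sprr2b and Sprr2d), for the Sprr2 member with the smallest in the same comparisons (Sprr2h), and for both Sprr1 genes, with matches of TGAGTCA (an AP-1 site) and ATTTGCAT (the octamer bound by POU factors) in capitals. They lie at chr3:92316455-92316704, chr3:92338890-92339139 and chr3:92385435-92385684 on the plus strand, and at chr3:92438780-92439029 and chr3:92485882-92486131 on the minus strand.
Sprr2b: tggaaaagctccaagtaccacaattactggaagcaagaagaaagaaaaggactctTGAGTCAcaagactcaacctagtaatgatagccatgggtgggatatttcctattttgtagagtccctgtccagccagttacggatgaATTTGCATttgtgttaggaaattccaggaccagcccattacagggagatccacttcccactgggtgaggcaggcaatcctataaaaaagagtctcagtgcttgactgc
Sprr2d: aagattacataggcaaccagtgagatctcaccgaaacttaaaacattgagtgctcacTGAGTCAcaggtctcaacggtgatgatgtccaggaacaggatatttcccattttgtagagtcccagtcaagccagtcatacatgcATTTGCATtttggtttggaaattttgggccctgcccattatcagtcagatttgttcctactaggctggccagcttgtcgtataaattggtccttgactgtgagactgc
Sprr2h: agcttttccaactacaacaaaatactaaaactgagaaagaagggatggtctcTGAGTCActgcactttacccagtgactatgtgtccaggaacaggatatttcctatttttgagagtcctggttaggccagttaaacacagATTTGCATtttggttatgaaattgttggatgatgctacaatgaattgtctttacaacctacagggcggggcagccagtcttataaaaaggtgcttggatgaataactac
Sprr1b: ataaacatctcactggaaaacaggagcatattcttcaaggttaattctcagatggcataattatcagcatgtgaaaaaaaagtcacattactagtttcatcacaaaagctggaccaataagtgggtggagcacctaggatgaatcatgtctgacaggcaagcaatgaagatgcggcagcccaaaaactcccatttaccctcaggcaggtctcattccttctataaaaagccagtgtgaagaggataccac
Sprr1a: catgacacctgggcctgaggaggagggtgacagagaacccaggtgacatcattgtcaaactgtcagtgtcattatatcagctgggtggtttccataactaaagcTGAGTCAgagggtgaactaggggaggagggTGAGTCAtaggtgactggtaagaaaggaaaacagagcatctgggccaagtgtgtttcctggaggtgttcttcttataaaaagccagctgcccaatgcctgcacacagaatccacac

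All 6 Sprr2 members with a window (Sprr2b, Sprr2d, Sprr2e, Sprr2f, Sprr2h and Sprr2i) held TGAGTCA between positions −198 and −193 and ATTTGCAT between −112 and −108, counted to the first base of the match. Of 32851 mouse promoter windows of the same length, searched on both strands, 5.2% held TGAGTCA, 1.74% held ATTTGCAT and 0.134% held both. The 6 Sprr2 windows are alike in sequence (identities below), so their matches are not independent of each other. The Sprr1a window held TGAGTCA at −146 and −116 and no octamer, and the Sprr1b and Sprr3 windows held neither. TATAAA stood in all 9 member windows and in 13.6% of all windows. Among Sprr genes not on the list, the Sprr2k window held TGAGTCA, ATTTGCAT and TATAAA, and its counts were too low to be tested. The windows of Sprr2a1, Sprr2a2 and Sprr2a3 held none of TGAGTCA, ATTTGCAT and TATAAA. The Sprr2a2 window (92250397 to 92250646) does not lie at the annotated start of that gene, 92215920. The log2 fold changes of these Sprr2a genes with IL-36γ were 3.99 to 4.53, from counts made uncertain by shared sequence. A link between motifs and fold changes was not tested. Of the other motifs searched, an NF-kB pattern (GGG and CC with 5 bases of any kind between them) was found in 4 of 9 member windows and in 50.8% of all windows, TTCNNNGAA (STAT) in 1 of 9 and 8.3%, and an interferon response pattern (GAAA repeated after 2 bases of any kind) in 0 of 9 and 3.44%. Outside the list, the NF-kB pattern stood in the windows of Sprr2a1, Sprr2a2, Sprr2a3 and Sprr2k, and TTCNNNGAA in that of Sprr2a3. The longest runs that all 6 Sprr2 member windows shared were ATTTGCATTT and TGAGTCAC. Base identity in global alignments, with gap positions counted as differences, was 61.9% to 89.1% between Sprr2 member windows, highest for Sprr2d with Sprr2e. It was 48.3% to 54.0% between the Sprr2 member windows and those of Sprr1a, Sprr1b and Sprr3. A match describes the letters in the window and was not linked to binding here.

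The libraries held between 25293468 and 34759293 counts. Members of this cluster are similar in sequence, so every 76-base window of each transcript, the read length, was compared with all other transcripts. The share of windows found elsewhere was 3.81% for Sprr2b, 0.165% for Sprr2d, 5.25% for Sprr2e, 5.72% for Sprr2i and 0% for the other 6 members, while it was 94.2% for Sprr2a1, 94.6% for Sprr2a2 and 47.0% for Sprr2a3, whose counts are therefore uncertain. The skin label was checked against markers, given as CPM (reads of a gene relative to the effective size of its library): those of basal keratinocytes (7 of 7 detected in every library, summed level 9679 to 20270 CPM) and suprabasal keratinocytes (8 of 8, 10000 to 22850 CPM) were abundant, and those of skeletal muscle were also detected (6 of 6, 100.9 to 1991 CPM). The muscle sum differed within PBS, at 176, 1991 and 1666 CPM in replicates 1 to 3. It was 1276 to 1691 CPM with IL-17A, 607 to 1288 with IL-36γ and 101 to 727 with both. PBS replicate 1 and IL-17A replicate 1 stood apart from the other libraries of their groups, with a chi-square per gene of 41.1 to 64.1 against them, where the other libraries of these groups differed from each other by 7.09 and 9.19. The counts of list members called in each comparison are also given with single libraries left out. Values of genes outside the list are given with all libraries only.

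In ears injected with PBS, Sprr1a was the main Sprr transcript and the Sprr2 genes were close to the detection limit. Levels between genes are compared as RPKM, which divides CPM by exon length, and levels of 1 gene between libraries as CPM. Per exon length, Sprr1a stood at 74.7 ± 22.2 RPKM (SD, n = 3), Sprr1b at 11.47 ± 7.27 and Sprr2d at 1.73 ± 1.47, and in all 3 libraries these 3 genes kept this order. Sprr4, which is not on the list, stood between Sprr1a and Sprr1b, at 45.1 ± 13.2 RPKM. The other Sprr2 members had mean levels of 0.119 to 1.31 RPKM in PBS, and their ranges overlapped except that Sprr2b lay below Sprr2g, Sprr2h and Sprr2i. Of these, Sprr2h lay above Sprr2d in PBS replicate 1 (2.17 against 1.545 RPKM) and replicate 3 (0.484 against 0.356). Sprr3, an SPRR protein best known from the oesophagus and oral mucosa, had 0 counts in 11 libraries and 3 counts in IL-17A replicate 1, no more than the 3 counts that a count of 0 allows, so no fold change was computed. Krt4 and Krt13, keratins of non-keratinizing squamous epithelium, summed to 0.853 to 2.33 CPM over the 12 libraries.

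Sprr1a, whose protein is among the major SPRR precursors of the envelope, showed no called change with either cytokine. Its level was 80.7, 48.3 and 51.6 CPM in the PBS libraries, 80.8, 40.5 and 39.5 with IL-17A, 57.6, 59.1 and 45.3 with IL-36γ, and 118, 56.2 and 79.1 with both. All groups overlapped. Against PBS the log2 fold change was −0.17 with IL-17A (95% interval −0.85 to 0.51), −0.16 with IL-36γ (−0.84 to 0.52) and 0.49 with both (−0.19 to 1.17, edgeR quasi-likelihood test, adjusted p = 0.224). The intervals leave room for changes of up to 1.17 on the log2 scale.

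Sprr1b, the paralogue 47.1 kb away and a known squamous differentiation marker, rose with IL-36γ and with the combination. Its level was 15.6, 9.40 and 3.55 CPM in PBS, 85.8, 15.4 and 12.9 with IL-17A, 76.4, 124 and 47.2 with IL-36γ, and 233, 163 and 148 with both. Every IL-36γ and every combination library lay above every PBS library, and the combination libraries also lay above all IL-36γ libraries, while 1 IL-17A library was high and the other 2 were in or near the PBS range. The fold change was 8.65 with IL-36γ (log2 3.11, SE 0.72, adjusted p = 0.00805) and 18.9 with both (log2 4.24, SE 0.75, adjusted p = 0.00083). With IL-17A alone it was 3.98 (log2 1.99, SE 0.70) and was not called (adjusted p = 0.0807).

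**Figure D1:**
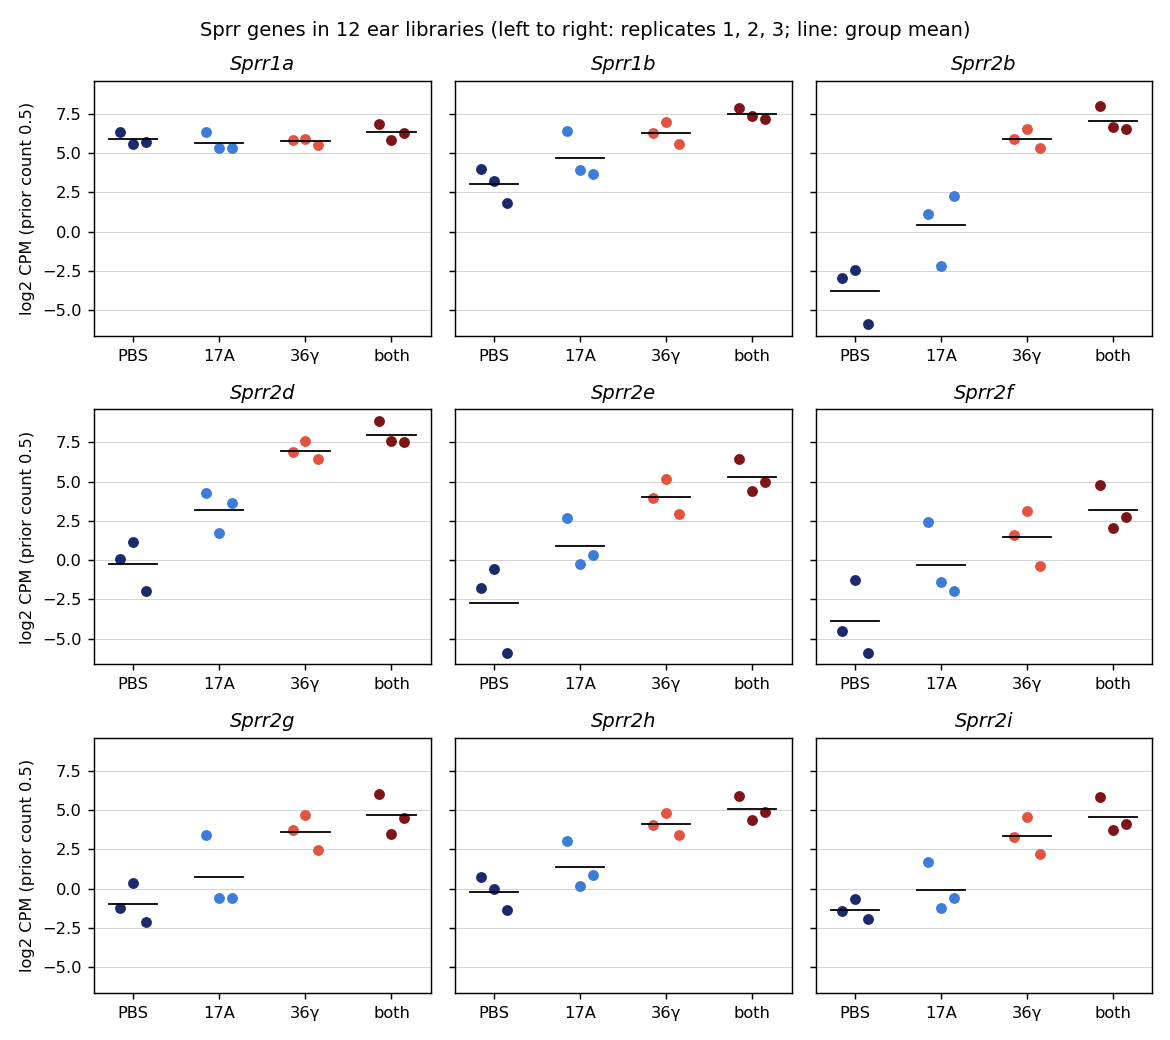
Level of each tested Sprr gene in every library, as log2 CPM with a prior count of 0.5 (y axis), by group (x axis: PBS, IL-17A, IL-36γ and both cytokines); points are the mice in replicate order 1 to 3 and lines are group means. All genes but Sprr1a lie above every PBS library with IL-36γ and with the combination, and the first IL-17A library lies high for most genes.

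Sprr2d was the most abundant Sprr transcript per exon length wherever IL-36γ was given, at 193 ± 78.2 RPKM with IL-36γ and 412 ± 234 RPKM with both cytokines (SD, n = 3). Its level was 1.05, 2.24 and 0.243 CPM in PBS, 19.0, 3.23 and 12.4 with IL-17A, 119, 190 and 85.3 with IL-36γ, and 464, 196 and 181 with both. The PBS, IL-17A and IL-36γ libraries formed 3 ranges that did not overlap, and the combination libraries overlapped those of IL-36γ. It rose 9.62-fold with IL-17A (log2 3.27, SE 0.75, adjusted p = 0.0258), 110-fold with IL-36γ (log2 6.78, SE 0.77, adjusted p = 0.000139) and 235-fold with both (log2 7.87, SE 0.79, adjusted p = 2.99e-05). All 3 comparisons share the PBS libraries.

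Sprr2b had the highest fold changes of the list, from the lowest start. The 3 PBS libraries held 4, 6 and 0 reads of it, that is 0.111, 0.17 and 0 CPM. Its level was 2.18, 0.2 and 4.79 CPM with IL-17A, 58.8, 92.7 and 39.5 with IL-36γ, and 257, 99.7 and 93.0 with both. In CPM no 2 of the 4 groups overlapped, although the lowest combination library lay just above the highest IL-36γ library. The highest PBS library and the lowest IL-17A library each held 6 reads, so only library scaling set these groups apart. The log2 fold change was 4.53 with IL-17A (SE 1.31, adjusted p = 0.0473), 9.32 with IL-36γ (SE 0.99, adjusted p = 9.75e-05) and 10.55 with both (SE 0.99, adjusted p = 2.13e-05). Its fold against PBS rests on 10 PBS reads in all, which limits its precision. The IL-17A call was lost in 12 of 17 alternative settings, with adjusted p between 0.00249 and 0.168 over them.

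The relation of Sprr2b to Sprr2d, a pair of genes 22.5 kb apart, was compared within each library. Sprr2b made up 33.1%, 32.8% and 31.7% of the reads of both genes in the IL-36γ libraries and 35.6%, 33.7% and 33.9% in the combination libraries. In the IL-17A libraries its share was 10.3%, 5.83% and 27.8%, with exact Clopper-Pearson 95% intervals of 7.9% to 13.1%, 2.17% to 12.2% and 23.6% to 32.3%, so it was lower than in any IL-36γ library in the first 2 and varied between mice beyond counting error. PBS libraries gave 9.52% of 42 reads, 7.06% of 85 and 0% of 8, with upper limits of 22.6%, 14.7% and 36.9%. These intervals cover counting error only.

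Sprr2e, Sprr2f, Sprr2g, Sprr2h and Sprr2i, further envelope precursors of the same subfamily, followed Sprr2d at lower levels. Sprr2e went from 0 to 0.651 CPM in PBS to 7.78 to 35.2 with IL-36γ and 21.5 to 86.1 with both. Sprr2h covered 0.364 to 1.63 CPM in PBS, 10.7 to 27.5 with IL-36γ and 20.5 to 59.4 with both. For all 5 genes the ranges of IL-36γ and of the combination lay above that of PBS. Sprr2i ranged from 0.242 to 0.623 CPM in PBS, from 4.65 to 23.5 with IL-36γ and from 13.0 to 56.2 with both. Sprr2g, which the annotation lists as a polymorphic pseudogene, ranged from 0.212 to 1.27 CPM in PBS, from 5.41 to 25.2 with IL-36γ and from 10.9 to 66.1 with both. Sprr2f was the least abundant of the 5 under IL-36γ, with 0 to 0.396 CPM in PBS, 0.757 to 8.86 with IL-36γ and 4.17 to 27.0 with both. With IL-36γ the log2 fold changes of these 5 genes were 4.19 (Sprr2h) to 5.94 (Sprr2e), and with both cytokines 5.18 (Sprr2h) to 7.18 (Sprr2e), and each passed the test. With IL-17A alone they were 1.74 to 3.73 and none passed, with adjusted p between 0.0951 (Sprr2e) and 0.288 (Sprr2i).

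Counted over the list, a gene was called at an adjusted p below 0.05 and a log2 fold change beyond 1. IL-17A against PBS called 2 of 9 tested members higher (Sprr2b and Sprr2d), where 1.07% of all 19408 tested genes were called higher. IL-36γ against PBS called 8 of 9 (5.11% of all genes), and IL-17A + IL-36γ against PBS called 8 of 9 (7.35%), in both cases all except Sprr1a. The median log2 fold change of the tested members was 2.59, 4.85 and 6.12 in the 3 comparisons, and that of all tested genes was 0.04, −0.02 and −0.03. No member was called lower in these comparisons, where 1.03%, 1.98% and 6.06% of all tested genes were. Libraries of the cytokine group all lay above those of PBS for 3, 8 and 8 members, against 19.6%, 22.4% and 27% of all tested genes. For Sprr2b with IL-17A the nearest libraries held equal read counts and differed by scaling only. In whole ear tissue, more keratinocytes that express these genes and more RNA per cell cannot be told apart.

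Both IL-17A calls depended on single mice. Without IL-17A replicate 1 the count fell from 2 to 0, with Sprr2d at 2.66 (adjusted p = 0.126) and Sprr2b at 4.54 (adjusted p = 0.149), and without PBS replicate 3 it also fell to 0. It was 1 without PBS replicate 2, IL-17A replicate 3, any of the IL-36γ libraries, or combination replicate 2 or 3. The direction of both genes stayed positive throughout. The 8 calls of the combination against PBS were made whichever single library was left out, and the IL-36γ count was 6 to 8, with Sprr2f or both Sprr2f and Sprr2g as the genes lost.

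**Figure D2:**
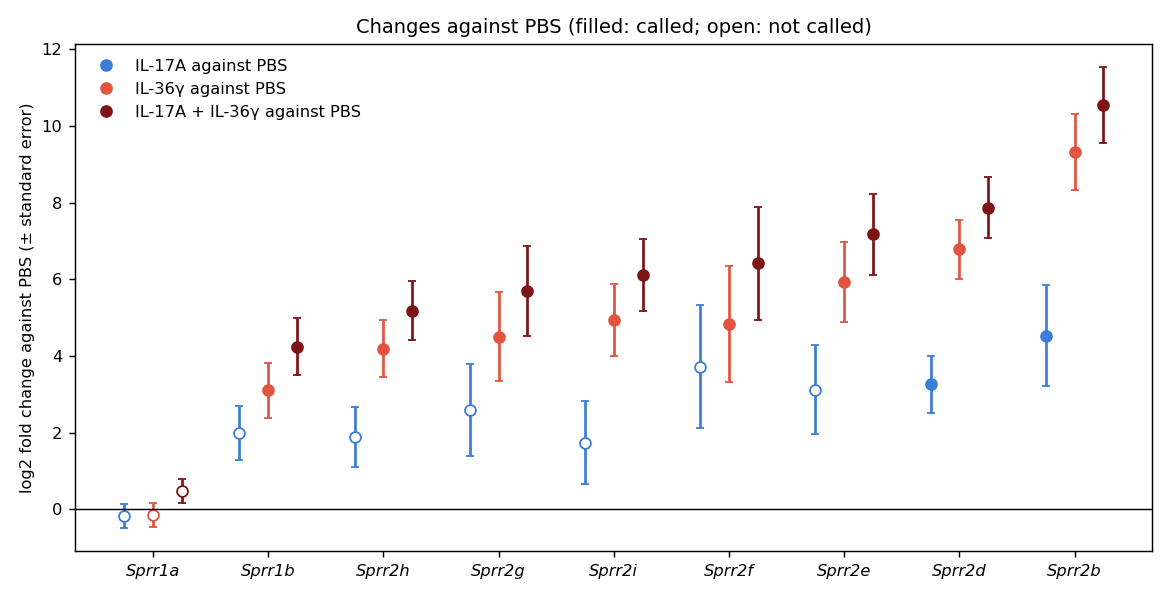
Log2 fold change against PBS (y axis) of each tested Sprr gene (x axis) for IL-17A, IL-36γ and both cytokines, with standard errors; filled points were called and open points were not. Sprr1a stays near 0 in all 3 comparisons, and Sprr2b reaches 9.32 with IL-36γ and 10.55 with both.

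The single cytokines were then compared with each other. IL-36γ against IL-17A called 3 of 9 members higher (Sprr2b, log2 4.78, SE 0.68, Sprr2d, log2 3.52, SE 0.62, and Sprr2i, log2 3.19, SE 0.81), against 1.25% of all tested genes. The IL-36γ libraries lay fully above the IL-17A libraries for 5 members (15.6% of all genes), namely these 3 with Sprr2e and Sprr2h, both at an adjusted p of 0.0527. IL-17A replicate 1 bore on this count, which was 7 without it, and it was 5 without PBS replicate 1, so the count depends on single libraries.

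The combination was compared with each cytokine alone. IL-17A + IL-36γ against IL-17A called 7 of 9 members higher (4.46% of all genes), all but Sprr1a and Sprr2f, of which the libraries of the combination lay fully above those of IL-17A for all 7 (23% of all genes), with a median log2 fold change of 3.30 over the tested members and the highest value for Sprr2b (6.02, SE 0.70, adjusted p = 0.000238). IL-17A + IL-36γ against IL-36γ called 0 of 9 (0% of all tested genes were called higher). In that comparison all 9 estimates were positive, from 0.64 (Sprr1a) to 1.57 (Sprr2f), 1 had an unadjusted p below 0.05 in edgeR's test, as did 5.6% of all genes in this direction (Sprr2b, 1.23, 95% interval 0.07 to 2.39, adjusted p = 0.306), and DESeq2 also called 0. The combination libraries lay fully above the IL-36γ libraries for 2 members, Sprr1b and Sprr2b (9.33% of all genes). The 95% intervals of the 8 members other than Sprr2b all included 0 and reached from as low as −0.74 (Sprr2g) to as high as 3.78 (Sprr2f), so a missing call does not show that the levels were alike.

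Whether IL-17A acted differently in the presence of IL-36γ was tested directly as the interaction, the log2 change by IL-17A with IL-36γ minus that without it. It was called for 0 of 9 members (0.551% of all genes, in either direction), and DESeq2 also called 0. The estimate was negative for 8 of 9 members, from −0.57 (Sprr2i) to −3.30 (Sprr2b), and 0.81 for Sprr1a. Only Sprr2d had an unadjusted p below 0.05 (−2.17, 95% interval −4.20 to −0.14, unadjusted p = 0.0381, adjusted p = 0.197), against 13.9% of all tested genes that passed this limit in the negative direction. Without IL-17A replicate 1 the estimates of 5 members (Sprr1b, Sprr2f, Sprr2g, Sprr2h and Sprr2i) turned positive, between 0.51 and 1.23.

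**Figure D3:**
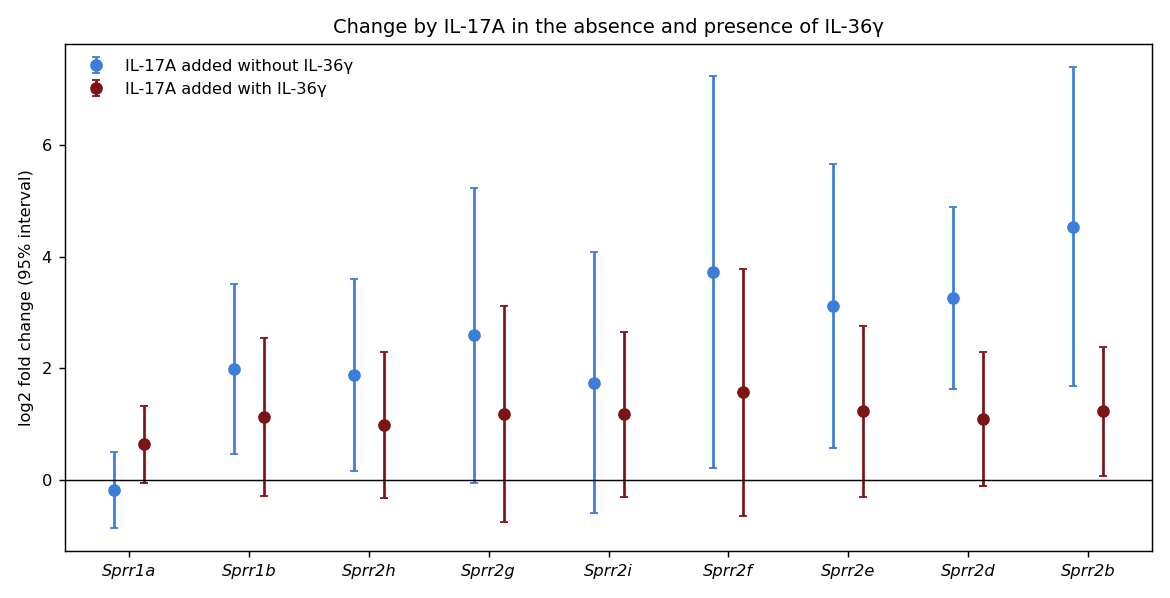
Log2 fold change by IL-17A (y axis, with 95% intervals) of each tested Sprr gene (x axis), without IL-36γ (IL-17A against PBS) and with IL-36γ (both cytokines against IL-36γ). The interval of the change with IL-36γ lies above 0 for Sprr2b alone, and that without IL-36γ lies above 0 for 6 genes.

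Levels were also added up on the linear scale. The summed level of the 10 members was 73.5 ± 23.5 CPM in PBS, 119 ± 88.4 with IL-17A, 401 ± 172 with IL-36γ and 853 ± 445 with both (SD, n = 3). The sum of the combination exceeded the additive value (IL-17A plus IL-36γ minus PBS) by 406 CPM, with a standard error of 281 CPM. For single members this excess was largest for Sprr2d (139 CPM, SE 97.1), Sprr2b (83.8, SE 55.7) and Sprr1b (70.0, SE 42.3). Combination replicate 1 carried much of it: the excess of the sum was 150 CPM without this library, and 333.5 to 552 CPM without any other single library. The excess is less than 2 standard errors from 0, and no test was attached to it.

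Within the list, which leaves out Sprr4, the make-up of the Sprr signal shifted from Sprr1a to the Sprr2 genes. Sprr1a held 82.1% of the summed RPKM of the list in PBS (mean of 3 libraries), 50.1% with IL-17A, 13.4% with IL-36γ and 9.53% with both. Sprr2d held 1.94%, 11.6%, 35.8% and 35.04% in the same groups, Sprr2b 0.127%, 2.56%, 14.97% and 16%, and Sprr1b 11.8%, 25.4%, 18.1% and 20.5%. With IL-36γ, alone or combined, the 4 leading genes per exon length were Sprr2d, Sprr1b, Sprr2b and Sprr1a in this order of group means. Within libraries, Sprr2d lay above Sprr1b in 6 of the 6 that received IL-36γ, Sprr1b above Sprr2b in 5 of 6 (all except combination replicate 1) and Sprr2b above Sprr1a in 5 of 6 (all except IL-36γ replicate 3). Across libraries of a group the ranges of these neighbours overlapped. The level of Sprr1a itself showed no called change in any of these groups.

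**Figure D4:**
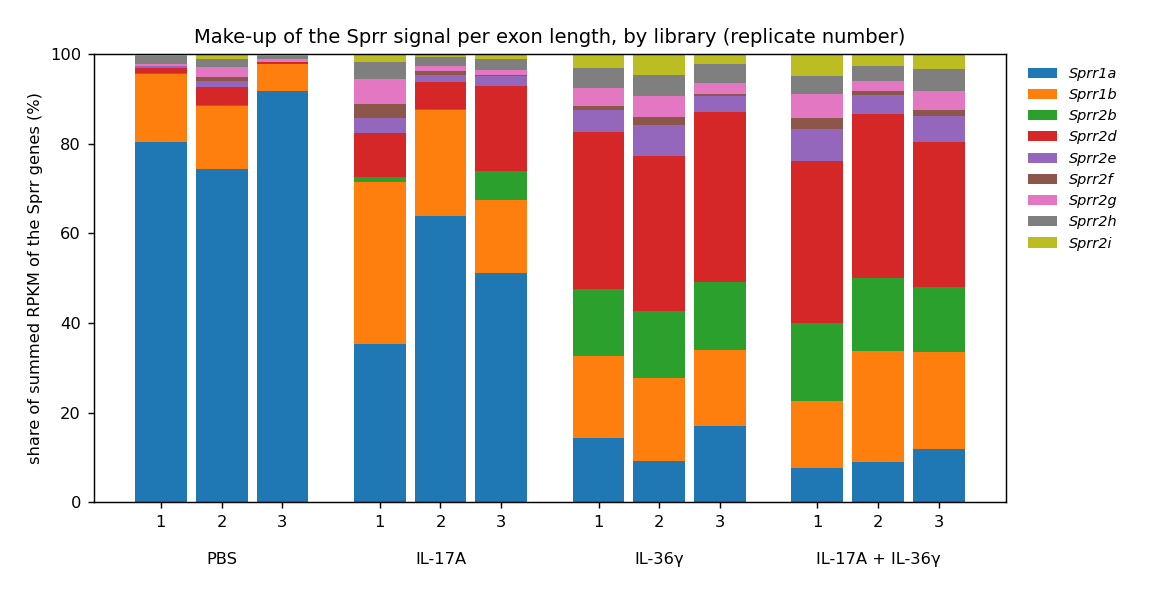
Share of each Sprr gene in the summed RPKM of the list (y axis, %) in each of the 12 libraries (x axis, replicate number within group). Sprr1a fills 74.3% to 91.7% of the bar in the PBS libraries and 7.75% to 16.9% in the libraries that received IL-36γ.

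In the groups that received a cytokine, most members were highest in the same library. In IL-17A replicate 1, 8 of the 9 tested members were at their highest of the 3 libraries, all except Sprr2b. IL-36γ replicate 2 was highest and replicate 3 lowest for 9 of 9, and combination replicate 1 was highest for 9 of 9. The lowest combination library was replicate 2 for 6 members and replicate 3 for 3. In PBS, replicate 2 was highest for 6 members and replicate 1 for 3, and replicate 3 was lowest for 8. After group means were removed, Pearson's r of log2 CPM over the 12 libraries was 0.45 to 0.98 between Sprr2 genes, highest for Sprr2f with Sprr2g. It was 0.42 to 0.94 between Sprr1b and the Sprr2 genes, and 0.36 to 0.88 between Sprr1a and the other members. These correlations describe libraries that share a scaling and are given without a test.

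Other signals moved with this spread or with the groups. The stress keratins Krt6a, Krt6b, Krt16 and Krt17 (4 of 4 detected) summed to 325 to 526 CPM in PBS, to 2236, 635 and 578 CPM in IL-17A replicates 1 to 3, to 3026, 5487 and 2080 in the IL-36γ libraries and to 10590, 6901 and 6261 in the combination libraries, so the same libraries were high. The summed level of 8 neutrophil markers was 15.2 to 24.0 CPM in PBS, 69.3, 29.6 and 40.2 in the IL-17A libraries, 63.8, 94.5 and 67.7 with IL-36γ and 219.6, 108 and 150 with both, with no marker of this list at 0 in any library that received IL-36γ. Basal keratinocyte markers summed to 9679 to 11600 CPM in PBS and 16330 to 20270 CPM with both cytokines, a sum led by Krt14 (log2 fold change 1.38, called) and Krt5 (0.87, adjusted p = 0.000268, below the fold threshold), while Krt15 was called lower (−1.18) and the median of the 7 markers was −0.09. Suprabasal markers summed to 10000 to 14650 CPM in PBS and 19920 to 22150 CPM with both. Of these 8 markers 1 was called higher with both (7.35% of all tested genes), and their median was 0.20. Cell cycle genes were called higher for 6 of 6 with IL-36γ and with both (medians 1.49 and 1.91), and macrophage markers for 5 of 6 and 4 of 6 (medians 1.15 and 1.07). Of all tested genes, 5.11% and 7.35% were called higher in these comparisons. With both cytokines 2 of 4 tested cartilage markers were called lower (median −0.96), and 0 of 6 skeletal muscle markers were (median −1.904), against 6.06% of all tested genes. PBS replicate 1 had a muscle sum of 176 CPM, within the 101 to 727 CPM of the combination libraries. The part of these signals in the Sprr differences was not tested.

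Position along the cluster is shown with the 7 other Sprr genes. Of these, 5 were tested, and IL-36γ and the combination each called 4 of the 5 higher (5.11% and 7.35% of all tested genes). Sprr2a3 had 0.0606 to 1.42 CPM in PBS, 31.6, 0.532 and 1.73 with IL-17A, 10.3 to 14.7 with IL-36γ and 12.1 to 15.8 with both. Its fold change was 20.9 with IL-17A, a call in which the IL-17A and PBS libraries overlapped and 1 library was high, 23.1 with IL-36γ and 25.5 with both. Sprr4, at the far end next to Sprr1a, had log2 fold changes of −1.07 with IL-17A (adjusted p = 0.0505), −0.38 with IL-36γ and −0.13 with both, and none was called. From Sprr2b to Sprr2h, over 69.1 kb, the log2 fold change of the combination fell from 10.55 to 5.18 along the tested genes. This order did not extend to either side. Beyond Sprr2h, Sprr2i was at 6.12 and Sprr2j-ps, not on the list, at 7.75 (SE 1.52, called). Before Sprr2b, Sprr2a1, Sprr2a2 and Sprr2a3 were at 4.11, 4.14 and 4.67. The standard errors from Sprr2b to Sprr2i, 0.76 to 1.48, exceed most steps between neighbours.

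**Figure D5:**
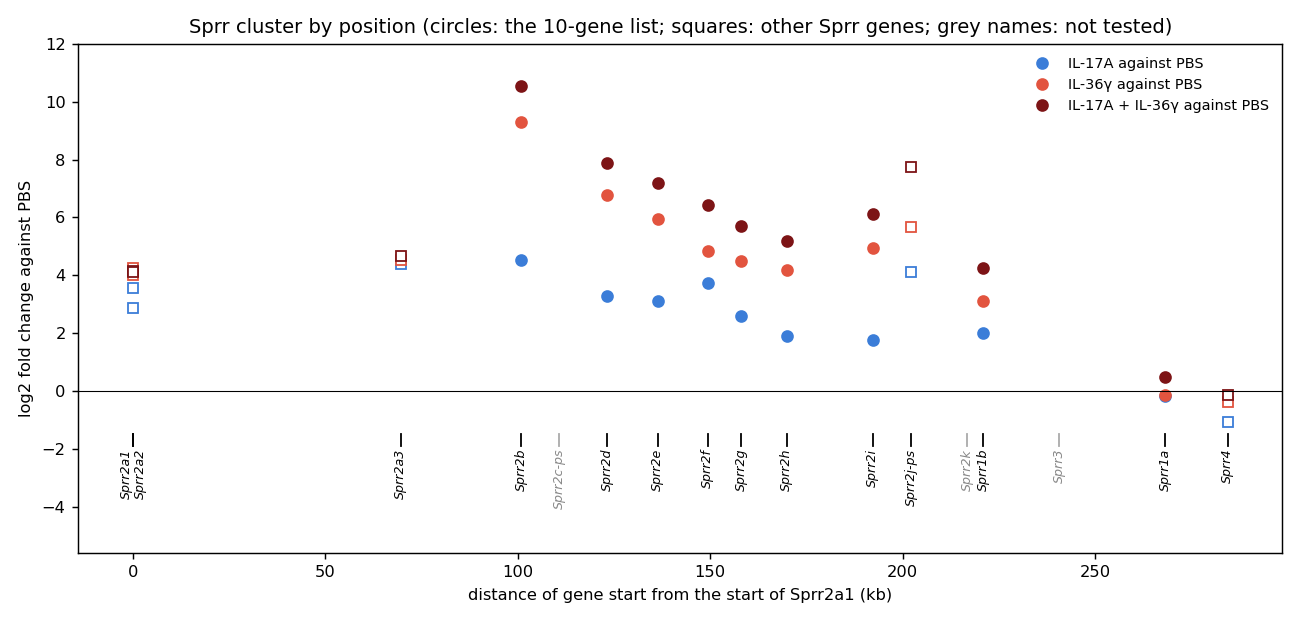
Log2 fold change against PBS (y axis) for IL-17A, IL-36γ and both cytokines, by distance of the gene start from that of Sprr2a1 in kb (x axis); circles are genes of the list, squares are other Sprr genes, and grey names mark genes not tested. Sprr2b has the highest values, at 100.8 kb, and Sprr1a and Sprr4, at 268.2 and 284.5 kb, lie nearest 0 with IL-36γ and with the combination.

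The chromosome segment around the cluster, from S100a1 to S100a10, holds 104 genes without an Sprr symbol, of which 60 were tested. IL-17A called 2 higher and 2 lower, IL-36γ 16 and 3, and the combination 19 and 4, with a median log2 fold change of 0.52 for the combination. Of all tested genes, 1.07% were called higher and 1.03% lower with IL-17A. These shares were 5.11% and 1.98% with IL-36γ, and 7.35% and 6.06% with the combination. Calls among these neighbours included S100a8 and S100a9, subunits of calprotectin, with log2 fold changes of 8.06 and 8.11 with both cytokines, while Prr9, S100a3, Lce1m and Flg2 fell.

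The partners of SPRR proteins in the envelope were described by a list of 24 tested structural proteins. IL-17A called 0 of them by edgeR's test, IL-36γ called 10 higher and 1 lower, and the combination 11 higher and 2 lower, with medians of 0.21, 0.86 and 0.83 on the log2 scale. The same comparisons called 1.07%, 5.11% and 7.35% of all tested genes higher and 1.03%, 1.98% and 6.06% lower. With both cytokines Cnfn (cornifelin) rose by 2.47 (SE 0.27), Ivl (involucrin, an early envelope scaffold) by 1.52 (SE 0.17) and Rptn (repetin) by 4.54 (SE 0.58), and the 6 Lce3 genes by 3.29 to 7.20. Lce1m (−3.31, SE 0.48) and Flg2 (filaggrin 2, −2.17, SE 0.39) fell. Ivl, Rptn, Flg, the 6 Lce3 genes, Lce1m and Flg2 were also among the called genes of the chromosome segment. The counts of the segment and of this list therefore share genes.

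Among 11 cross-linking and processing enzymes, 2 were called higher with IL-17A, 4 with IL-36γ and 5 with both, where 1.07%, 5.11% and 7.35% of all tested genes were. Tgm3, a transglutaminase that links SPRR proteins, rose with both cytokines by 1.85 (SE 0.18, log2 scale), Casp14, a caspase of cornification, by 3.01 (SE 0.28) and Klk13, a kallikrein protease, by 5.48 (SE 0.55). Casp14 (1.14) and Klk13 (1.97) also rose with IL-17A alone. None of the 11 was called lower in any of these comparisons, where 1.03%, 1.98% and 6.06% of all tested genes were.

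Of 15 transcription factors with known sites or roles in SPRR regulation, 2 were called higher with IL-17A, 4 with IL-36γ and 3 with both. The shares of all tested genes called higher were 1.07%, 5.11% and 7.35%. Fos, an AP-1 subunit, was at 24.6 ± 4.10 CPM in PBS, 175 ± 103 with IL-17A, 152.5 ± 11 with IL-36γ and 85.2 ± 50.2 with both (SD, n = 3). Junb, another AP-1 subunit, was at 96.4 ± 16.9, 205 ± 38.6, 208 ± 21.8 and 184 ± 23.8 CPM. The interaction was negative for Fos (−3.67, SE 0.72, adjusted p = 0.0498) and Junb (−1.26, SE 0.22, adjusted p = 0.0437). Elf3 and Ehf, epithelial ETS factors, rose with both cytokines by 2.26 (SE 0.42) and 1.84 (SE 0.16). These are transcript levels on day 4, and binding to the promoters shown above was not measured.

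The genes whose levels tracked the Sprr genes most closely were ranked by Pearson's r with the mean standardized log2 CPM of the 9 tested members over the 12 libraries. They were Slpi (0.99), Lce3e (0.99), Smox (0.99), Cd300lb (0.98), Lce3b (0.98), Cstdc6 (0.98), 1810037I17Rik (0.98), Tcf23 (0.98), Lce3a (0.98) and Lce3f (0.98). All 10 had positive log2 fold changes with both cytokines, from 1.26 (1810037I17Rik) to 7.20 (Lce3b). The 12 points fall into 4 treatment groups, so these values describe a shared group pattern.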

How the data were processed

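RNA of mouse ears was measured by RNA-Seq in 12 libraries, 3 per group. Per the labels and the methods of the study, the authors mapped reads to mm10 using STAR 2.5.2b, and featureCounts (Subread 1.5.1) gave counts for each Ensembl gene, and the deposited counts are not normalized. How strand and reads mapping to several places were treated is not given in the sources used here. The authors' tables of fold changes and p-values (DESeq2 1.30.0) were used only for their pairing of identifiers with symbols, which covered 47020 of 50684 identifiers.

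Groups were taken from the sample labels. The members and gene lists were chosen with earlier results of these data known. Genes were filtered with filterByExpr of edgeR 4.0.16 (minimum count 10), scaled by TMM and fitted in 1 quasi-likelihood model with a mean per group (glmQLFTest, two-sided), and p-values were adjusted by the Benjamini-Hochberg method over all 19408 tested genes. The total of counts was 25293468 to 34759293 per library. The study's own likelihood ratio test was run as an alternative in DESeq2 1.42.0. Standard errors were derived from the F statistic. RPKM used exon lengths of GENCODE vM21. Genes of the fixed lists were named by lowest adjusted p in the combination against PBS. Among envelope proteins this rule gave Cnfn, Ivl and Rptn. Evpl (log2 0.60, not called) came next and was passed over, and Lce1m, Flg2 and the Lce3 genes were named outside the rule. The S100, Prr9 and Lce1m examples of the chromosome segment were picked after their values were seen. The scripts were tested on simulated data. Libraries within groups differed by more than sampling noise (chi-square per gene 7.09 to 64.1), so none was treated as a duplicate. The replicates are separate mice.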

Additional observations from a re-analysis of the deposited data

How the results depend on the processing

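The counts of Sprr genes called were recomputed with DESeq2, other size factors, other filters, a replicate block, only the 2 groups compared, no fold threshold and each of 12 libraries left out. For IL-17A against PBS, 2 calls became 1 with DESeq2-type size factors, 4 without a filter on low counts, 0 with at least 10 counts in every library, where neither called gene was tested, and 0 with only the 2 groups compared, where Sprr2b was not tested and Sprr2d had an adjusted p of 0.0805, and 0 to 2 when 1 library was left out. For IL-36γ against IL-17A, 3 calls became 5 with library size only, 5 without a filter, 1 with at least 10 counts in every library and 2 to 7 when 1 library was left out. Requiring 10 counts in every library left 3 members to test and 2 calls each for IL-36γ against PBS, both cytokines against PBS and both against IL-17A. With 1 library left out these comparisons gave 6 to 8, 8 and 5 to 9 calls. The combination against IL-36γ and the interaction gave 0 calls in every alternative.

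Replicate numbers did not pair the samples: the correlation of deviations from group means of same-numbered libraries was −0.20 to 0.35. With the replicate block, IL-36γ against IL-17A gave 5 calls and no other count moved by over 1.5 times. Scaling by library size only gave medians of all genes of −0.13 to −0.17 against PBS and reversed no member.

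Of single-gene results, 1072 kept direction and side of the threshold, 25 crossed it upward, 33 fell below it and 15 changed sign, all 15 when 1 library was left out. Over the fits with 1 library left out, the log2 fold change of Sprr1a was −0.62 to 0.11 with IL-17A, −0.29 to 0.11 with IL-36γ and −0.17 to 0.44 for IL-36γ against IL-17A. That of Sprr2g with IL-17A was −0.036 to 3.59, and that of Sprr2f for IL-36γ against IL-17A −0.049 to 3.78. The interaction was −1.49 to 0.91 for Sprr2i, −2.39 to 1.23 for Sprr2g, −1.47 to 0.51 for Sprr2h, −1.42 to 0.60 for Sprr1b and −5.12 to 0.54 for Sprr2f, the highest values without IL-17A replicate 1. The cause of these changes was not tested. The excess of the summed Sprr level over additivity was 414 CPM and 407 CPM with other scalings and 150 to 552 CPM when 1 library was left out. Depth limits Sprr2b, Sprr2e and Sprr2f in PBS, where single libraries held 0 reads.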
